A study of Homo sapiens with 6 samples.

Results

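The primitive streak transcription factors followed here are 9 genes, T (the gene now named TBXT, whose protein is brachyury), MIXL1, EOMES, GSC, EVX1, MESP1, MESP2, TBX6 and MSGN1. They were taken by gene symbol from a table of read counts for 63677 genes, and all 9 were found, each under 1 Ensembl identifier. RNA came from the human embryonic stem cell lines Royan H6, here RH6, and Royan H5, here RH5, sequenced as 6 libraries. Naive cells are likened to the preimplantation embryo, and primed cells, the usual form of such lines, to the epiblast after implantation. Naive RH6 (passage 10, 2 libraries) and naive RH5 (passage 17, 2 libraries) had been induced with the condition called 2a2iL and kept in 2iL medium with trypsin passaging. They were set against primed RH6 (passage 20, 1 library) and primed RH5 (passage 16, 1 library), kept with bFGF. All cells grew on inactivated mouse embryonic fibroblasts, so the feeder layer was shared, while state and medium changed together and cannot be told apart. Passage differed among all groups as well, so its part cannot be told apart from that of line or state. The labels do not say whether duplicates were cultured separately, so the spread between them, on which the p-values rest, can be technical. Over both lines the p-values also reflect how far the effect of the state differed between the lines.

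The primitive streak is the furrow through which cells of the gastrulating embryo leave the epiblast to become mesoderm and definitive endoderm. Nodal, Wnt and BMP signals induce it, and the factors here carry that instruction into transcription. T and EOMES are T-box proteins of the nascent streak, MIXL1 and GSC are homeodomain proteins of mesendoderm, and EVX1 is a homeodomain protein of the posterior streak. In the mouse, MESP1 marks the earliest cardiac and cranial mesoderm leaving the streak, MESP2 sets somite boundaries, and TBX6 and MSGN1 direct cells to presomitic mesoderm.

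Libraries held 13457979 to 14663982 counts. Levels are given as CPM, the counts of a gene relative to the library total scaled by TMM factors. All 7 markers of pluripotent cells were expressed, with a summed level of 4066 to 5730 CPM in the naive libraries and 5912 to 6214 CPM in the primed libraries. In naive cells 3 of them (SOX2, SALL4 and DPPA4) fell and 0 rose in edgeR (1 at an unadjusted p under 0.05, and 0 with DESeq2 and limma-voom). Over both lines 13.6% of all tested genes fell and 12.1% rose.

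T, MIXL1 and EVX1 rose in naive cells of both lines, and primed cells held a trace of them. EOMES rose steeply in RH6 and modestly in RH5, GSC rose in RH6, and TBX6 was at a lower level in all 4 naive libraries than in either primed library. T (ENSG00000164458, chromosome 6) stood at 52.5 and 60.5 CPM in naive RH6 and 42.6 and 40.8 CPM in naive RH5, against 0.468 CPM in primed RH6 and 1.95 CPM in primed RH5. MIXL1 (ENSG00000185155, chromosome 1) stood at 42.2 and 41.4 CPM in naive RH6 and 86.3 and 72.5 CPM in naive RH5, against 0.937 CPM in primed RH6 and 2.96 CPM in primed RH5. For both genes every naive library lay far above both primed libraries, and the counts behind the primed values were low, with 7 and 27 for T and 14 and 41 for MIXL1. Over both lines the log2 fold change of T was 5.34 ± 0.47 (SE, adjusted p = 5.43e-04 by edgeR's quasi-likelihood test with Benjamini-Hochberg adjustment over all genes tested). That of MIXL1 was 5.02 ± 0.22 (adjusted p = 6.63e-05). Within RH6 the log2 fold change of T was 6.89 ± 0.27 (adjusted p = 1.14e-07), and within RH5 it was 4.41 ± 0.22 (adjusted p = 4.94e-07). MIXL1 changed by 5.47 ± 0.25 within RH6 (adjusted p = 2.51e-07) and by 4.74 ± 0.21 within RH5 (adjusted p = 2.69e-07). Both genes thus passed in each line, T with the wider gap between the lines. Without primed RH6 the fit leaves only the RH5 effect of T (4.42), and without primed RH5 only the RH6 effect (6.92). In these bulk libraries fewer cells of a type and less RNA per cell cannot be told apart. Averaged over the naive libraries, T was at 49.1 ± 9.16 CPM (SD, n = 4) and MIXL1 at 60.6 ± 22.4 CPM (SD, n = 4), against primed means of 1.21 and 1.95 CPM.

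T, MIXL1, EOMES and EVX1 rose in naive cells of each line. The windows around the start sites of all the factors were searched for short motifs of the proteins through which Wnt, Nodal and T itself act. The windows run from 250 bases before to 50 bases after a start site and come from RefSeq on GRCh38.p14, where 8 of the 9 genes matched (MESP1 had no entry) with 9 windows, T having 2 start sites. Both strands were searched for the TCF/LEF motif (CTTTGAA with its variant CTTTGAT as well as the variant CTTTGTT plus the variant CTTTGTA), the FOXH1 motif (AATCCACA), a T-box site (AGGTGTGA) and a SMAD palindrome (GTCTAGAC). No match overlapped another, and the motifs were chosen after the windows had been seen. The 4 windows with a match are shown with the match in capitals, 5′ to 3′ on the gene's strand. They are MIXL1 at chr1:226223414-226223713 (plus strand), the second T window at chr6:166167802-166168101 (minus strand), MSGN1 at chr2:17816210-17816509 (plus strand) and MESP2 at chr15:89776082-89776381 (plus strand).
MIXL1: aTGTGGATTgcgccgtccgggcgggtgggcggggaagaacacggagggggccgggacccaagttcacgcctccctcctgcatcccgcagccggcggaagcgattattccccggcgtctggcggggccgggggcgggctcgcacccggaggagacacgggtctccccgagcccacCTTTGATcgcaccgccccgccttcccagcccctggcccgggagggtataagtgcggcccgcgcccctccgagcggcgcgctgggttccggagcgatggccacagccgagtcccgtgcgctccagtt
T: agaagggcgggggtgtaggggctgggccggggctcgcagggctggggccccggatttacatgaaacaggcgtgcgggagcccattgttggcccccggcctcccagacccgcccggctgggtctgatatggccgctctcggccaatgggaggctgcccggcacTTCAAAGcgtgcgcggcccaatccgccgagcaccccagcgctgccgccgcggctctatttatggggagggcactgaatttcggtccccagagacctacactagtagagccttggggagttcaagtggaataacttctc
MSGN1: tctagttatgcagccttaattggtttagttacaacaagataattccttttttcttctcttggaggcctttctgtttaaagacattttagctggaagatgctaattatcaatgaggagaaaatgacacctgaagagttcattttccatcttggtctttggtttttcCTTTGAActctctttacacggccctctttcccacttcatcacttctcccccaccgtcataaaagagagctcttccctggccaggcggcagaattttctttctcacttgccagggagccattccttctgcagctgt
MESP2: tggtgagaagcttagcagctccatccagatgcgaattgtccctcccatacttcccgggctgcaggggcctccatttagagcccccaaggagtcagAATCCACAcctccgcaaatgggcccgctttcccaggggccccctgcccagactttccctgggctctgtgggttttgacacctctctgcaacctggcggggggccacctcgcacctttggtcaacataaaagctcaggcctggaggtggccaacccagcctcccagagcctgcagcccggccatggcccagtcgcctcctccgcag

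MIXL1 held both a TCF/LEF match on its own strand at -76 to -70 from the start site and a FOXH1 match on the other strand at -249 to -242. The T window held a TCF/LEF match on the other strand at -88 to -82, and MSGN1 one on its own strand at -85 to -79. MESP2 held a FOXH1 match at -155 to -148. No match was found for EOMES and EVX1, which rose in both lines, nor for GSC, TBX6 and the first T window. TCF/LEF letters were thus found for 3 of the 8 genes, and 13.8% of all 35116 windows of the same length hold them. FOXH1 letters were found for 2 of the 8, against 0.817% of all windows. The T-box site was found for 0 of the 8 (0.98% of all windows hold it) and the SMAD palindrome for 0 of the 8 (0.202%). The background shares count windows while the factors are counted by gene, and the motifs were chosen with the windows seen. No enrichment can be read from them. A match is a description of the letters and not a site of binding.

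**Figure D1:**
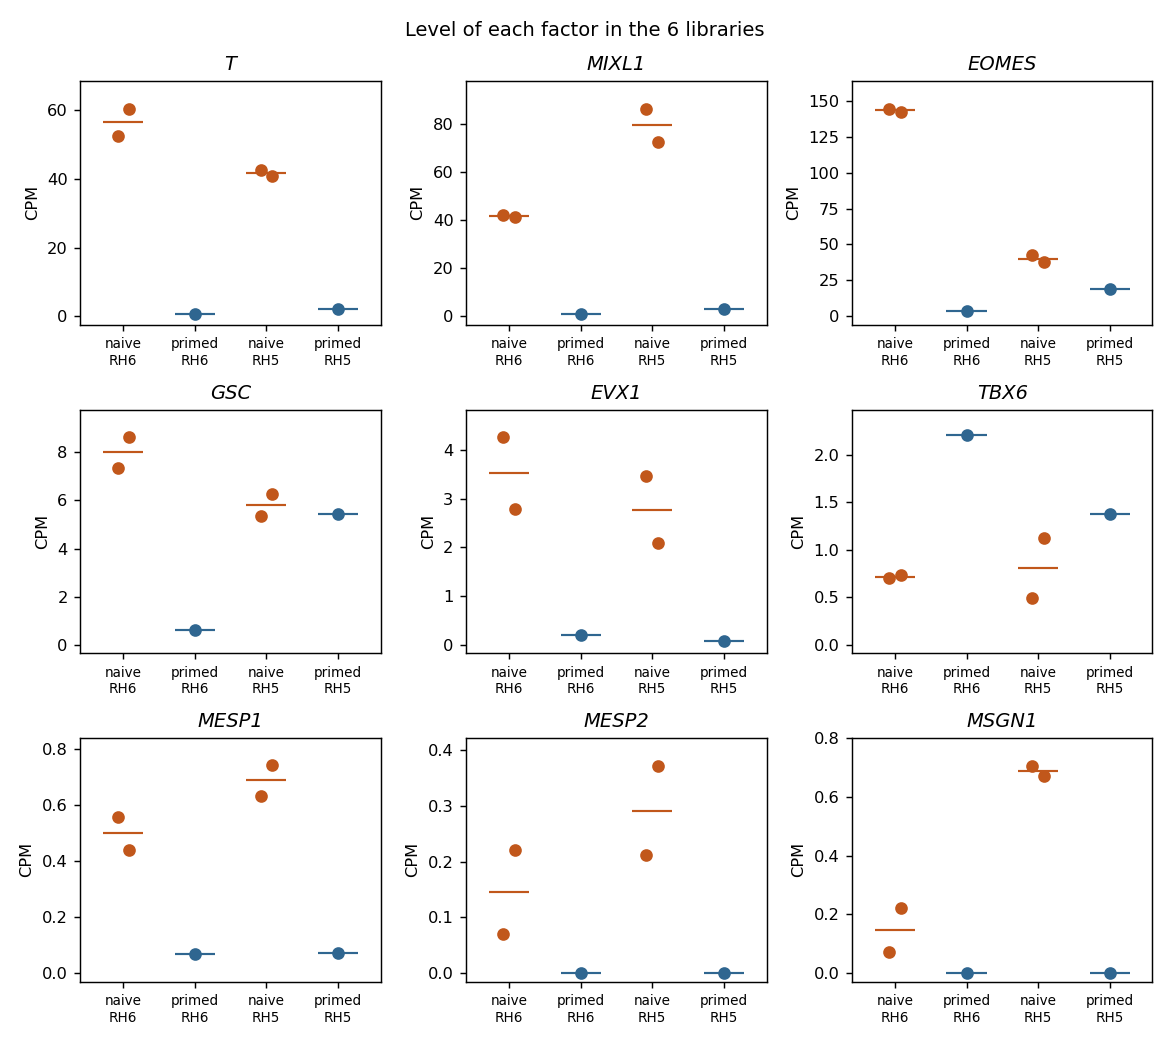
CPM of each factor (vertical axis, linear, own scale per panel) in naive and primed RH6 and naive and primed RH5. Each point is 1 library and each bar the mean of its group. T, MIXL1 and EVX1 are high in all 4 naive libraries, GSC in primed RH5 (5.42 CPM) lies within the naive range, and TBX6 is the factor with both primed libraries on top.

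EVX1 (ENSG00000106038, chromosome 7) was at 4.27 and 2.79 CPM in naive RH6 and 3.46 and 2.09 CPM in naive RH5, against 0.201 CPM in primed RH6 and 0.0722 CPM in primed RH5. All naive libraries lay above both primed ones, which held 3 and 1 counts. Its log2 fold change over both lines was 4.44 ± 0.55 (adjusted p = 0.0019), with 4.08 ± 0.69 within RH6 (adjusted p = 0.0013) and 5.10 ± 0.89 within RH5 (adjusted p = 0.0015). Without primed RH6 the estimate for EVX1 was 5.11, the RH5 effect, and without primed RH5 it was 4.11, the RH6 effect. From summed counts, EVX1 was 22.8-fold higher in naive cells, with a 95% exact counting interval of 8.75 to 84.7. In RH6 the ratio was 17.7 (5.87 to 87.1, from 99 naive and 3 primed counts) and in RH5 38.6 (6.73 to 1545, from 77 naive and 1 primed count). Intervals of this kind cover counting error only. The antisense gene EVX1-AS shares 532 exon bases with EVX1 in GENCODE 29. Whether the counting used strand is not stated in the labels, and without strand the reads of both genes cannot be told apart. EVX1-AS itself had 4 and 4 counts in naive RH6, 4 and 5 in naive RH5, and 0 in both primed libraries.

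EOMES (ENSG00000163508, chromosome 3) was at 144.7 and 142.3 CPM in naive RH6 and 42.6 and 37.4 CPM in naive RH5, against 3.81 CPM in primed RH6 and 18.7 CPM in primed RH5. Naive libraries lay above both primed ones, but the gap was wide in RH6 and narrow in RH5. Taken over both lines, the change of EOMES was 2.63 ± 0.88 on the log2 scale and missed the threshold (adjusted p = 0.0673). Under the alternatives that kept both primed libraries, its adjusted p ran from 2.18e-04 to 0.1647. EOMES passed the threshold with DESeq2 (0.0479), limma-voom (0.0177) and all genes kept (2.18e-04). Without primed RH6 the estimate was 1.10, the RH5 effect, and without primed RH5 it was 5.26, the RH6 effect. Within RH6 EOMES rose by 5.23 ± 0.18 (adjusted p = 1.08e-07). Within RH5 it rose by 1.10 ± 0.14 (adjusted p = 2.57e-04).

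GSC (ENSG00000133937, chromosome 14) stood at 7.34 and 8.66 CPM in naive RH6 and 5.36 and 6.26 CPM in naive RH5, against 0.602 CPM in primed RH6 and 5.42 CPM in primed RH5. The naive and primed values overlapped because primed RH5 lay between the naive RH5 libraries. Over both lines the change of GSC was 1.36 ± 0.70 on the log2 scale (adjusted p = 0.2025, and 0.0384 to 0.3456 under the alternatives that kept both primed libraries). It passed the threshold with all genes kept (0.0384). Without primed RH5 the estimate was 3.74, where the RH6 effect is what remains, and without primed RH6 it was 0.11, the RH5 effect. In RH6 GSC rose by 3.71 ± 0.38 (adjusted p = 4.16e-05). In RH5 the change of 0.10 ± 0.26 was not called (adjusted p = 0.8054).

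TBX6 (ENSG00000149922, chromosome 16) was the factor whose primed libraries were higher. It stood at 0.699 and 0.734 CPM in naive RH6 and 0.494 and 1.12 CPM in naive RH5, against 2.21 CPM in primed RH6 and 1.37 CPM in primed RH5, from 10, 10, 7 and 15 naive counts and 33 and 19 primed counts. Both primed libraries lay above all naive ones. Over both lines the difference was -1.22 ± 0.42 on the log2 scale (adjusted p = 0.0749). It passed the threshold without naive RH5 replicate 2 (0.0430), over a range of 0.0430 to 0.2484 with both primed libraries kept. Without primed RH5 the estimate was -1.58, the RH6 effect, and without primed RH6 it was -0.77, the RH5 effect. In RH6 TBX6 fell by 1.61 on the log2 scale (SE 0.52, adjusted p = 0.0352). It missed the threshold with DESeq2 (0.3589) and without either naive RH6 replicate (0.0754 and 0.0611), over a range of 0.0095 to 0.3589. In RH5 the change of -0.77 ± 0.56 was not called (adjusted p = 0.3219).

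MESP1, MESP2 and MSGN1 were below the low-count filter and were not tested. They are ENSG00000166823 and ENSG00000188095 on chromosome 15 and ENSG00000151379 on chromosome 2. MESP1 had 8 and 6 counts in naive RH6 and 9 and 10 in naive RH5, against 1 in each primed library. Its summed ratio was 8.56-fold higher in naive cells, with a counting interval of 2.19 to 73.6. MESP2 had 1 and 3 counts in naive RH6 and 3 and 5 in naive RH5, against 0 in both primed libraries. Its ratio was 2.07 with the primed group set at a floor of 3 counts in all, which leaves out the counting error of the naive counts. MSGN1 had 1 and 3 counts in naive RH6 and 10 and 9 in naive RH5, against 0 in both primed libraries, a ratio of 3.97 by the same floor. Every naive library of these 3 genes lay above both primed ones, by a few counts. How often other genes below the filter separate in this way was not computed, so this only describes the counts. With no low-count filter edgeR called MESP1 (adjusted p = 0.0179) and MSGN1 (0.0184) over both lines and did not call MESP2 (0.1380). DESeq2 did not call MESP1 (adjusted p = 0.0786) and gave no adjusted p for MESP2 and MSGN1.

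Set against all genes, 3 of the 6 tested factors rose over both lines (T, MIXL1 and EVX1), where 12.1% of the 19434 tested genes rose, and 0 fell, where 13.6% of all genes fell. With DESeq2 and limma-voom 4 rose, EOMES being added, and 0 fell. At an unadjusted p under 0.05 in edgeR, EOMES (0.0198) would be added among those that rose and TBX6 (0.0232) as 1 that fell. Without primed RH6 or without primed RH5 the fit holds the effect of the other line alone, so its calls are not counted here. All naive libraries lay above both primed ones for 4 of the 6 tested factors, against 21.5% of tested genes, and below them for 1, against 22.9%. Within RH6, 5 of the 6 rose (16.4% of all genes rose) and TBX6 fell (17.2% of all genes fell). Within RH5, 4 of the 6 rose (16.5% of all genes) and 0 fell (17% of all genes), also with DESeq2, limma-voom or an unadjusted p in edgeR. The within-line tests take their spread from the naive duplicates and assume that each lone primed library varies like them.

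**Figure D2:**
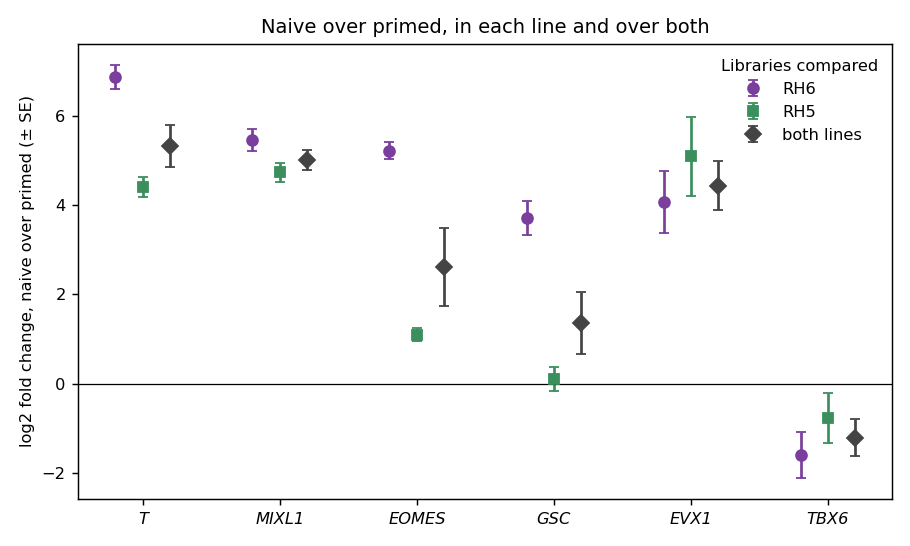
Log2 fold change, naive over primed (vertical axis, bars are ± SE), for the 6 tested factors within RH6, within RH5 and over both lines. The RH6 and RH5 estimates lie far apart for EOMES (5.23 and 1.10) and GSC (3.71 and 0.10) and overlap within their errors for EVX1 and TBX6.

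Whether the effect of the naive state differed between the lines was tested directly. For 3 of the 6 tested factors the effect was larger in RH6 than in RH5 (5.86% of all genes passed in that direction) and for 0 it was smaller (6.16%). With limma-voom it was larger for 2 and smaller for 0, and with DESeq2 or an unadjusted p in edgeR the counts were again 3 and 0. The difference of log2 fold changes was 4.13 ± 0.23 for EOMES (adjusted p = 6.49e-06), 3.61 ± 0.47 for GSC (adjusted p = 9.91e-04) and 2.47 ± 0.47 for T (adjusted p = 0.0080). For T it was not called with limma-voom (0.0550; its range over the alternatives was 1.37e-04 to 0.0550). MIXL1 (0.73 ± 0.40), EVX1 (-1.02 ± 1.60) and TBX6 (-0.84 ± 0.77) were not called.

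The primed RH6 library held fewer reads of 4 factors than the primed RH5 library. With 1 primed library per line these ratios compare 2 libraries, not the lines, and have no replicate check. The ratio of primed RH6 to primed RH5 was 0.111 for GSC (counting interval 0.0489 to 0.223), 0.204 for EOMES (0.150 to 0.273), 0.240 for T (0.0883 to 0.565) and 0.316 for MIXL1 (0.159 to 0.592). For TBX6 it was 1.61 (0.888 to 2.99). In the naive state line and passage cannot be told apart. EOMES was higher in naive RH6 than in naive RH5 by 1.84 ± 0.11 on the log2 scale (adjusted p = 2.06e-06) and MIXL1 was lower by a log2 difference of -0.93 ± 0.12 (adjusted p = 2.86e-04). T was higher by 0.44 ± 0.11 (adjusted p = 0.0182), a call that was lost with DESeq2 (0.0966) and without naive RH6 replicate 2 (0.0812) or naive RH5 replicate 2 (0.0994), over a range of 2.47e-05 to 0.0994 under the alternatives. Of the 6 tested factors, 2 were thus higher in naive RH6 (12.0% of all genes) and 1 lower (13.5%). GSC (0.46 ± 0.20), EVX1 (0.35 ± 0.34) and TBX6 (-0.16 ± 0.52) were not called. MSGN1, below the filter, had 4 counts in naive RH6 and 19 in naive RH5, a ratio of 0.208 (counting interval 0.0515 to 0.626).

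Markers of definitive endoderm, another product of the streak, went different ways in the lines. Of 9 such markers, 5 rose and 2 fell within RH6 (median log2 fold change 1.76), and 1 rose and 7 fell within RH5 (median -3.16). The log2 fold change was higher in RH6 than in RH5 for 7 of the 9 markers (SOX17, FOXA2 and GATA6 among them), where 5.86% of all tested genes passed. It was lower for 0 of the 9 markers in edgeR (6.16% of all tested genes passed). At an unadjusted p under 0.05 this was 1, and 0 with DESeq2 and limma-voom. Their summed level was 57.6 and 59.0 CPM in naive RH6 against 27.2 CPM in primed RH6, and 38.7 and 34.7 CPM in naive RH5 against 93.7 CPM in primed RH5. SOX17 had 37 and 40 counts in naive RH6 and 12 and 4 in naive RH5, against 12 in primed RH6 and 104 in primed RH5, and LHX1 of the anterior streak had 11 counts in primed RH6 and 181 in primed RH5. No marker of this list was at 0 in all libraries. Their part in the line difference of EOMES, GSC and T was not tested.

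Other cell types gave a mixed picture over both lines, where 12.1% of all tested genes rose and 13.6% fell. Of 9 tested fibroblast markers, 5 (COL1A2, COL3A1, LUM, POSTN and PDGFRB) rose and 1 (THY1) fell, with summed levels of 353.8 to 817.1 CPM in naive libraries against 261.5 to 267.9 CPM in primed libraries. Of 8 tested neural ectoderm markers, 7 fell and 0 rose by edgeR (0 also at an unadjusted p under 0.05 and with DESeq2), with 54.0 to 145.4 CPM in naive libraries against 326.7 to 767.0 CPM in primed libraries. Of 8 tested trophoblast and amnion markers, 3 (GATA2, TFAP2C and GABRP) rose and 1 (KRT7) fell, with 162.1 to 236.5 CPM in naive libraries against 75.4 to 120.8 CPM in primed libraries. TFAP2A, not called over both lines, fell within RH6 (log2 change -2.13) and rose within RH5 (2.12). Of 5 tested markers of cardiac, blood and endothelial mesoderm, 1 (CDH5) rose by edgeR (0 with limma-voom) and 0 fell (1 at an unadjusted p under 0.05, and 0 with DESeq2 and limma-voom), and summed levels were 13.6 to 21.1 CPM in naive libraries against 11.6 to 12.4 CPM in primed libraries. GATA1 and PECAM1 of that list had at most 2 counts in any library. The part of these cell types in the change of T, MIXL1 and EVX1 was not tested.

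The order of the factors, per kilobase of merged exons of GENCODE 29, also differed between the naive libraries of the lines. In naive RH6 the level per kilobase was 38.9 and 39.6 CPM for EOMES, 19.97 and 23.01 CPM for T, and 20.4 and 20.8 CPM for MIXL1. EOMES led there, and T and MIXL1 overlapped. In naive RH5 MIXL1 led at 35.7 and 42.5 CPM per kilobase, before T at 15.5 and 16.2 and EOMES at 10.2 and 11.7. GSC came next in both lines, at 5.81 and 6.85 CPM per kilobase in naive RH6 and 4.24 and 4.95 in naive RH5. EVX1 followed in naive RH6 at 0.832 and 1.27 CPM per kilobase. In naive RH5 MSGN1 stood at 1.11 and 1.16 CPM per kilobase, just above EVX1 at 0.622 and 1.03. MESP1, MESP2 and TBX6 lay between 0.0392 and 0.356 CPM per kilobase in the naive libraries, TBX6 and MESP1 overlapping in both lines. In the primed libraries EOMES led at 1.04 CPM per kilobase in primed RH6 and 5.12 in primed RH5, and TBX6 ranked second in primed RH6 at 0.704.

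**Figure D3:**
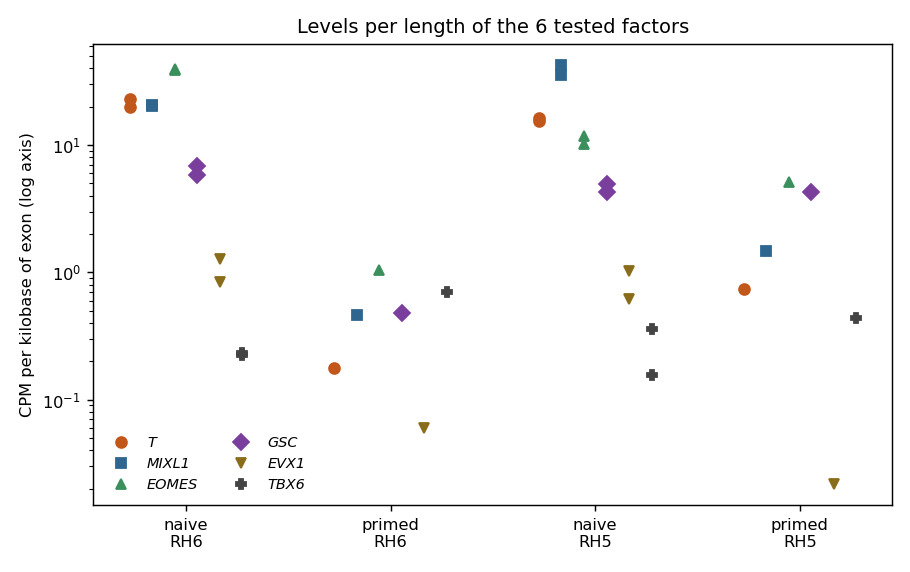
Level per kilobase of exon (vertical axis, log scale, in CPM per kilobase) of the 6 tested factors in each group, with 1 point per library. EOMES is on top in naive RH6 and MIXL1 in naive RH5, and GSC (4.29) lies close below EOMES (5.12) in primed RH5.

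The profiles of T and MIXL1 over the 6 libraries were the closest pair among the tested factors. Likeness was the root mean square difference of log2 CPM after each gene was centred on its own mean, so that 0 is an identical profile. It was 0.60 between T and MIXL1 and 0.89 between EOMES and GSC. Of the 16831 genes searched, 0.0594% were closer to T than MIXL1 was. The nearest genes to T were RP11-359M6.1 (0.28) and CTB-151G24.1 (0.30) and the homeobox gene PITX1 (0.35). Nearest to MIXL1 were CTD-2354A18.1 (0.16), the posterior homeobox gene CDX2 (0.28) and the cytokine gene IL6 (0.29). EOMES was closest to AC002480.2 (0.12), the sodium-proton exchanger gene SLC9A9 (0.16) and CTD-2007L18.5 (0.26). GSC was closest to the follicle-stimulating hormone receptor gene FSHR (0.18), MANEA-AS1 (0.20) and MYCT1 (0.30). The nearest genes to EVX1 were DOK6 (0.22), RP11-834C11.4 (0.26) and GUCY1A3 (0.26), and those to TBX6 were OR7E128P (0.15), CTBP2P4 (0.16) and PRPH2 (0.16). These are descriptions over 6 libraries, of which 4 are naive and 2 primed.

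Genes that act upstream of the streak factors in the embryo were mostly higher in naive cells. Of 14 tested streak-inducing signals, 9 rose and 1 fell, with a median log2 fold change of 2.49, where the median over all tested genes was -0.007. The Wnt ligand gene WNT3, required for streak formation in the mouse, averaged 73.9 ± 18.1 CPM in naive cells (SD, n = 4) and 12.3 CPM in primed cells, and its log2 change was 2.62 ± 0.14 (adjusted p = 9.66e-05). NODAL, the main mesendoderm inducer, averaged 141.0 ± 35.7 CPM in naive cells (SD, n = 4) and 8.67 CPM in primed cells, and its log2 change was 4.00 ± 0.41 (adjusted p = 9.55e-04). The noncanonical ligand gene WNT5A (2.71 ± 0.16) and BMP4 (2.30 ± 0.19), the ligand for posterior streak and extraembryonic mesoderm, rose as well. Over both lines the signal that fell was the ligand gene BMP2 (-1.18 ± 0.27, adjusted p = 0.0196). The ligand gene GDF1 was listed at 0 counts in all libraries and was not tested.

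Of 11 secreted antagonists and feedback targets, 7 rose and 0 fell over both lines by edgeR (0 also at an unadjusted p under 0.05 and with DESeq2), with a median of 1.38. Within RH6, 8 rose and 0 fell. Within RH5, 9 rose and 2 fell (1 with DESeq2), CER1 by a log2 change of -0.85 and DKK4 by -4.23. SP5, a Wnt target that represses other Wnt targets, rose by 3.79 ± 0.17 (adjusted p = 6.63e-05). The feedback inhibitor genes NKD1 (2.15 ± 0.30), AXIN2 (1.38 ± 0.20) and LEFTY1 (2.47 ± 0.36) rose too. LEFTY1 inhibits Nodal, while NKD1 and AXIN2 restrain Wnt signalling.

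Of 17 genes of nascent and lateral mesoderm, 10 rose and 0 fell over both lines by edgeR (0 also at an unadjusted p under 0.05 and with DESeq2), with a median of 2.54. Within RH6, 12 rose and 0 fell (1 at an unadjusted p under 0.05). Within RH5, 12 rose and 2 fell, KDR by a log2 change of -1.26 and LHX1 by -2.19, and both of these rose in RH6 (1.75 and 2.56). HAND1, a factor of lateral and extraembryonic mesoderm, averaged 73.6 ± 11.3 CPM in naive cells (SD, n = 4) and 0.719 CPM in primed cells. FOXC1, a forkhead factor of mesoderm, rose by 4.11 ± 0.19, and APLNR, a receptor of early mesoderm, by 6.15 ± 0.34. By summed counts the naive to primed ratio of CDX1, a posterior homeobox gene, was 145 (counting interval 39.9 to 1197, from 558 naive and 2 primed counts).

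Presomitic mesoderm, the tissue that TBX6, MSGN1 and MESP2 serve, showed no common direction. Of 9 tested genes, 2 rose (12.1% of all tested genes rose) and 2 fell (13.6% fell) over both lines, with a median of -0.25. NKX1-2, expressed in posterior progenitors, rose by 2.95 ± 0.15 (adjusted p = 8.96e-05) and the ligand gene FGF8 by 2.68 ± 0.32 (adjusted p = 0.0016). Lower in naive cells were the Notch modulator gene LFNG, at -1.84 ± 0.21 (adjusted p = 0.0015), and the Notch ligand gene DLL1, at -2.13 ± 0.50 (adjusted p = 0.0211). HES7, RIPPLY1 and RIPPLY2, genes of the segmentation programme, were below the filter, with RIPPLY1 at 0 counts in all libraries.

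**Figure D4:**
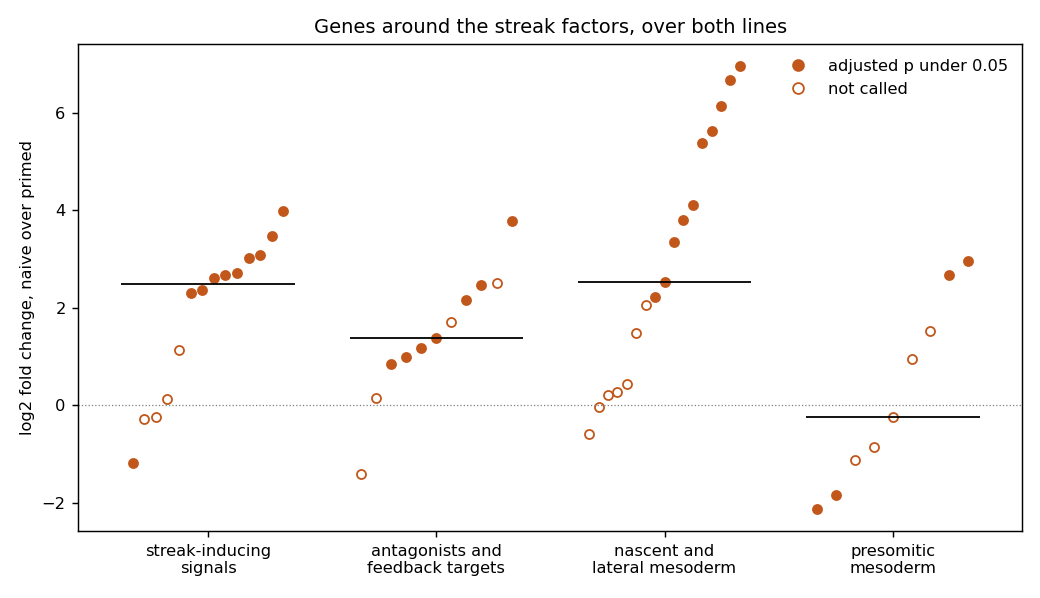
Log2 fold change, naive over primed over both lines (vertical axis), for the tested genes of 4 lists around the streak factors. Filled points passed an adjusted p of 0.05, open points did not, and black bars are list medians (2.49, 1.38, 2.54 and -0.25 from left to right).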

How the data were processed

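The authors deposited raw, whole-number read counts per gene, 1 column per library, per the labels and the file header. Tools listed in the submitters' processing notes are STAR 2.4.0a, FastQC, DESeq2 and, from Subread, featureCounts 1.4.5-p1; GRCh37.p5 and hg19 are the builds listed. Per the labels' protocols the kit was a stranded total RNA kit. Neither strand setting nor annotation release is stated there.

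Counts were tested with edgeR 4.0.16 in R 4.3.3 (TMM factors 0.965 to 1.029, quasi-likelihood F-test, two-sided). The 19434 genes tested passed filterByExpr by state (minimum count 10, total 15) and were called at an adjusted p under 0.05. Naive against primed over both lines had the line as covariate (3 residual degrees of freedom). Within-line effects, their difference and naive RH6 against naive RH5 were contrasts of 4 group means (2 residual degrees of freedom). A standard error is the fold change divided by the square root of F. Only the tests over both lines and within RH6 were run on simulated counts, which had no line difference and no changed low-count genes. The other contrasts and low-count genes were not covered. Alternatives were DESeq2 1.42.0, limma-voom (limma 3.58.1), other size factors, no filter, no line term, summed or omitted libraries and a replicate block. Ratios of summed counts have exact Clopper-Pearson intervals of 95%, and log2 CPM used a prior count of 2. Promoter windows are on GRCh38.p14, another build than the counts, and exon lengths come from GENCODE 29.

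Named are all 9 factors whatever their result, up to 4 genes per list with the smallest adjusted p plus NODAL, WNT3 and BMP4, and the 3 genes most like each tested factor among those with a mean of at least 1 CPM. BMP2, BMP7, TDGF1, WNT3A, LHX1, KDR, CER1, DKK4 and the single markers of other cell types were chosen after their values were seen. The factors and lists were chosen with earlier results of these data known.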

Additional observations from a re-analysis of the deposited data

Results flagged for a closer look

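The effect of the naive state differed between the lines for 3 factors, by a test of the difference itself. EOMES differed by 4.13 on the log2 scale, GSC by 3.61 and T by 2.47, each larger in RH6 than in RH5. EOMES held 2070 and 1939 counts in naive RH6 against 57 in primed RH6, and 604 and 502 in naive RH5 against 259 in primed RH5. GSC held 105 and 118 counts in naive RH6 against 9 in primed RH6, and 76 and 84 in naive RH5 against 75 in primed RH5. T held 751 and 824 counts in naive RH6 against 7 in primed RH6, and 604 and 548 in naive RH5 against 27 in primed RH5. Each line has 1 primed library, so a difference between these primed libraries and a difference between the lines cannot be told apart. No factor was flagged for a lone naive library, by a rule on the larger end gap relative to the range of the 4 naive CPM values. The rule pools both lines, so it can miss a duplicate that differs from its partner. TBX6 held 7 and 15 counts in naive RH5.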

How the results depend on the processing

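Of 300 recomputed effects of the 6 tested factors, 280 kept their direction and their side of the threshold, 10 passed it only under the alternative, 7 lost it and 3 changed sign. These totals include the fits without a primed library, which hold the effect of a single line. The 3 changes of sign concerned effects that were not called, all without naive RH5 replicate 2, namely GSC within RH5 (leave-one-out range -0.0004 to 0.2095), EVX1 in naive RH6 against naive RH5 (-0.0024 to 0.7364) and TBX6 in the same comparison (-0.6555 to 0.50). RLE and upper-quartile factors changed no call of a factor. Over both lines the number of factors that rose was 3, and it was 7 with no low-count filter (EOMES, GSC, MESP1 and MSGN1 added), and 3 to 5 when each library was left out in turn. The 5 came without primed RH6 (EOMES at 1.10 and MSGN1 added) and without primed RH5 (EOMES at 5.26 and GSC at 3.74 added). The number that fell was 0, and 0 to 1 when each library was left out, TBX6 being called without naive RH5 replicate 2 (adjusted p = 0.0430) and without primed RH5 (0.0405). Within RH6 the number that fell was 1, and 0 with DESeq2 and 0 to 1 when naive libraries were left out. In naive RH6 against naive RH5 the number higher was 2, and 1 with DESeq2 and 1 to 2 when naive libraries were left out.

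Labels give naive RH6 and naive RH5 the same replicate numbers, but nothing says that a number marks a shared batch, and deviations of same-numbered libraries correlated at 0.140 across 19434 genes. With the number as a replicate block on the 4 naive libraries, 3 factors were higher in naive RH6, GSC being added (0.47, adjusted p = 0.0360), and 1 was lower. Over all genes the number higher there was 2327, and 3764 with the block and 1363 with DESeq2. Over all genes, naive against primed in both lines called 2350 higher and 2646 lower, 496 and 631 with naive libraries summed, and 1291 to 1551 and 1604 to 1762 in the leave-one-out fits that moved them by over 1.5 times. DESeq2 called fewer genes within RH6 (1758 lower against 3346), within RH5 (2027 higher and 1744 lower against 3209 and 3297), for the difference between lines (659 and 607 against 1139 and 1198) and for naive RH6 against naive RH5 (1403 lower against 2625). The cause was not tested. Depth limits MESP1, MESP2, MSGN1 and TBX6, whose libraries held 0 to 33 counts.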

Other observations

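Presomitic genes other than the streak factors went different ways in the lines. Within RH6, 2 of 9 tested rose and 4 fell, within RH5 6 rose and 2 fell, and by the test of the difference the signed log2 fold change was lower in RH6 than in RH5 for 5 (2 with DESeq2) and higher for 0 in edgeR (0 also at an unadjusted p under 0.05 and with DESeq2). With DESeq2, 4 rose and 1 fell within RH5. MEOX1, a homeobox gene of somites, differed by -0.54 on the log2 scale within RH6 and by 4.61 within RH5 (adjusted p of the difference = 0.0018). PAX3, a factor of dermomyotome and dorsal neural tube, had -2.74 in RH6 and 1.23 in RH5 (adjusted p of the difference = 5.88e-05). The ligand gene WNT3A had 1 and 1 counts in naive RH6 against 12 in primed RH6, and 18 and 10 in naive RH5 against 2 in primed RH5. MSGN1 had its highest counts, 10 and 9, in the same naive RH5 libraries. These genes were chosen after their values were seen.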
